A study of Mus musculus with 32 samples.

Results

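The genes described here are 9 mouse genes whose products move copper or platinum drugs across membranes, or hand copper on inside the cell. They are the copper uptake genes Slc31a1 and Slc31a2, the metalloreductase gene Steap3, the copper chaperone gene Atox1, the copper-exporting ATPase genes Atp7a and Atp7b, the organic cation uptake gene Slc22a2, and the efflux genes Slc47a1 and Abcc2. They were chosen by name, from what their products are known to do, with earlier results of these data known. All 9 were found among the 25059 genes in the count files.

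Wild-type C57BL/6J female mice, 6 to 7 months old, received a single intraperitoneal injection of cisplatin at 10 mg/kg, and control mice received the same volume of saline. Kidney, liver, lung and spleen were taken 4 h after injection by the treatment protocol, although the sample labels give 2 h. In each organ RNA-seq was done on 2 control and 2 cisplatin libraries, whereas XR-seq and Damage-seq were done on 2 cisplatin libraries and on no control, which gives 32 libraries in all. XR-seq reads are the short fragments that nucleotide excision repair cuts out around cisplatin adducts, and Damage-seq reads mark adducts still on the DNA. Both were counted for each gene on the transcribed strand (TS), the template of RNA polymerase, and on the non-transcribed strand (NTS). Depth was 15.62 to 162.27 M reads on genes for RNA-seq, 10.66 to 59.78 M for XR-seq and 1.57 to 6.44 M for Damage-seq.

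The treatment labels were checked with Cdkn1a, a gene switched on by p53 after DNA damage. Its RNA level, as reads per kilobase of exon (RPKM, scaled to the depth of each library by TMM), was 117 and 133 in the cisplatin kidney libraries against 3.97 and 8.67 in the controls, and the cisplatin libraries were above the controls of their organ in all 4 organs. For lung and spleen RNA the submitters exchanged the control and cisplatin labels in a later correction, and the labels are used here as they now stand. Markers of other cells moved with treatment, and their part in the members' values was not tested. In spleen all 5 exocrine pancreas markers were higher in both cisplatin libraries, with a summed level of 801 to 1024 RPKM against 5.36 to 5.53 in the controls, and in lung all 5 B and T cell markers were lower in both cisplatin libraries, with a summed level of 16.2 to 21.1 RPKM against 69.3 to 73.8. All 5 lung epithelium markers were higher in both cisplatin libraries of liver (summed level 38.6 to 80.5 RPKM against 11.8 to 20.1) and of spleen (21.7 to 24.6 against 7.43 to 7.76), and in kidney 4 of 5 hepatocyte markers were lower in both (55.6 to 67.2 against 91.8 to 144). The tissues are whole organs, so fewer cells of a type and less RNA per cell cannot be told apart in any RNA value below. The 2 control libraries of lung, and the 2 of spleen, differed so little that each pair was summed and counted as 1 sample in the tests. A test of control lung against control spleen therefore sets 1 sample against 1, with the spread taken from the other groups.

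Copper enters cells through the trimeric channel that Slc31a1 encodes, after metalloreductases such as Steap3 have brought it to the cuprous state. The chaperone Atox1 passes it to the ATPases Atp7a and Atp7b, which load copper enzymes in the secretory pathway and pump out the excess, in most tissues through Atp7a and in liver into bile through Atp7b. Cisplatin has been tied to the same copper proteins, and in kidney it is known to enter proximal tubule cells through the organic cation transporter Slc22a2 and to leave towards urine through Slc47a1, while Abcc2 pumps conjugates into bile and urine.

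By GENCODE M21 on GRCm38, the build of the count files, the copper uptake genes are neighbours on chromosome 4. Slc31a2 (ENSMUSG00000066152), a relative of the copper channel found on internal membranes, lies at chr4:62262562-62298411, and Slc31a1 (ENSMUSG00000066150) at chr4:62360727-62391769, both on the plus strand. Cdc26 lies on the opposite strand over 8116 bp of Slc31a1, so that RNA reads, whose library kit keeps no strand, and NTS reads in that stretch can come from either gene. Steap3 (ENSMUSG00000026389) is on the minus strand at chr1:120190757-120272705. Atox1 (ENSMUSG00000018585), the shortest at 14.6 kb, is on the minus strand at chr11:55446641-55461239. Atp7a (ENSMUSG00000033792), the longest at 97.7 kb, is on the plus strand at chrX:106027276-106124926, and Atp7b (ENSMUSG00000006567) is on the minus strand at chr8:21992785-22060305. Slc22a2 (ENSMUSG00000040966) lies at chr17:12584132-12628488 on the plus strand. The efflux genes Slc47a1 (ENSMUSG00000010122) and Abcc2 (ENSMUSG00000025194) lie at chr11:61343401-61378345 on the minus strand and chr19:43782192-43840740 on the plus strand.

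Cisplatin mostly joins adjacent guanines, so the number of GG dinucleotides sets how many targets each strand offers. The members carried 46.1 (Atp7a) to 71.6 (Atox1) GG per kb on the TS, where the median of all genes was 58.5, and 46.1 to 70.6 on the NTS, where the median was 60.7. To show what the strand assays count, the first 90 bases of the longest coding exon of 4 members are given in the sense direction, read from GRCm38. GG in capitals is a target on the NTS, and CC in capitals is a GG on the TS. The stretches are exon 1 of Slc22a2 (chr17:12584281-12584370, plus strand, 5 GG and 7 CC, overlapping pairs counted), exon 2 of Atp7b (chr8:22028647-22028736, minus strand, 9 GG and 6 CC), exon 3 of Steap3 (chr1:120241870-120241959, minus strand, 6 GG and 8 CC) and exon 5 of Slc31a1 (chr4:62388598-62388687, plus strand, 1 GG and 8 CC), the 4 genes whose organ patterns differ most in kind below.
Slc22a2: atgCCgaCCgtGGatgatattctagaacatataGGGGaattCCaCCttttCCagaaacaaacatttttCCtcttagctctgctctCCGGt
Atp7b: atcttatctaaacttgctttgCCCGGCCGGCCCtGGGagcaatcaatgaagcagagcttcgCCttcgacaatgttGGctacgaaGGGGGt
Steap3: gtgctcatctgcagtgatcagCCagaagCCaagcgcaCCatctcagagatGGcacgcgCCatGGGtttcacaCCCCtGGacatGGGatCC
Slc31a1: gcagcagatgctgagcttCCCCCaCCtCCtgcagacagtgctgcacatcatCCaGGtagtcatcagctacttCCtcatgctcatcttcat

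The first comparison was of RNA levels between the 4 organs of saline-treated mice. The drug carriers were organ-restricted, the copper channel followed a graded order with liver at the top, and Slc31a2 and Atp7a showed no called difference. Of 54 member-by-pair tests (9 genes, 6 pairs of organs), 26 passed an adjusted p of 0.05 in edgeR against a log2 fold change of 0.4, where 37.0% of all gene-by-pair tests passed. In 23 of the 26 the first organ of the pair, in the order kidney, liver, lung, spleen, had the higher level. Between all genes tested the median log2 difference was -0.48 for liver minus spleen and -0.27 for liver minus lung, so that a liver excess stands against a shift the other way. Leaving out any 1 kidney or liver control gave 22 to 24 calls.

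The drug carriers came first in contrast. Slc22a2 had 71.7 and 133 RPKM in the control kidney libraries, 0.131 and 0.270 in lung, 0.137 and 0.107 in liver, and 0.0629 and 0.00761 in spleen. Kidney was above each other organ (adjusted p = 6.8e-06, 0.00011 and 2.1e-05 against liver, lung and spleen), and the other 3, with 2 to 66 reads a library, did not differ by a call. Slc47a1, the exporter on the urinary side, had 133 and 130 RPKM in kidney and 72 and 70.1 in liver, a difference of 0.79 ± 0.73 (log2, SE) that was not called. It was far lower in lung, at 0.448 and 0.535 RPKM, and in spleen 1 control library had 15 reads and the other none, where 3 reads would be 0.00837 RPKM. Lung was called above spleen (adjusted p = 0.041), with 1 summed sample on each side, and the call was lost without any 1 of the kidney or liver controls and in DESeq2. Abcc2 had 32.1 and 32.0 RPKM in kidney and 74.0 and 62.0 in liver (log2 kidney minus liver -1.18 ± 0.66, not called), and at most 0.0595 in the lung and spleen controls. For all 3 carriers the kidney libraries were above every lung and spleen library, without overlap.

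The copper channel gene Slc31a1 was the one member for which all 6 pairs were called, 1 of them narrowly. Its controls had 99.98 and 99.93 RPKM in liver, 50.2 and 54.4 in kidney, 15.7 and 17.1 in lung and 7.21 and 7.65 in spleen. Liver was above kidney by 1.03 on the log2 scale (kidney minus liver -1.03 ± 0.21, adjusted p = 0.010) and lung above spleen by 1.11 ± 0.30 (adjusted p = 0.043). The latter call sets 1 summed sample against 1 and was lost without either liver control and with no filter on low counts. Its relative Slc31a2 ran from 7.003 to 13.3 RPKM over all 8 control libraries, and no pair of organs was called.

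Atp7b, which loads copper into ceruloplasmin and bile in liver, had 10.5 and 8.48 RPKM in liver and 5.08 and 5.30 in lung. These neighbours in the order were not called apart (0.85 ± 0.44, adjusted p = 0.21). Both were above kidney, with 0.842 and 1.20 RPKM (log2 kidney minus liver -3.30 ± 0.38, adjusted p = 6.5e-05; kidney minus lung -2.45 ± 0.41, adjusted p = 0.0014), and above spleen, with 0.609 and 0.704. Its sister Atp7a lay between 0.552 and 2.53 RPKM in all control libraries and gave no call.

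Steap3, a reductase best known from developing red cells, had 6.71 and 11.6 RPKM in kidney and 6.73 and 6.28 in liver, which did not differ by a call. Kidney was above lung (1.73 ± 0.46, adjusted p = 0.018) and spleen (1.44 ± 0.45, adjusted p = 0.032), which had 2.44 to 3.07 RPKM. Atox1, the cytosolic chaperone, had the highest RPKM of the 9 genes in every control library, with 187 and 265 in liver, 155 and 167 in kidney, 94.96 and 96.99 in spleen and 76.0 and 73.1 in lung. Only its liver excess over lung was called (1.61 ± 0.51, adjusted p = 0.034).

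**Figure D1:**
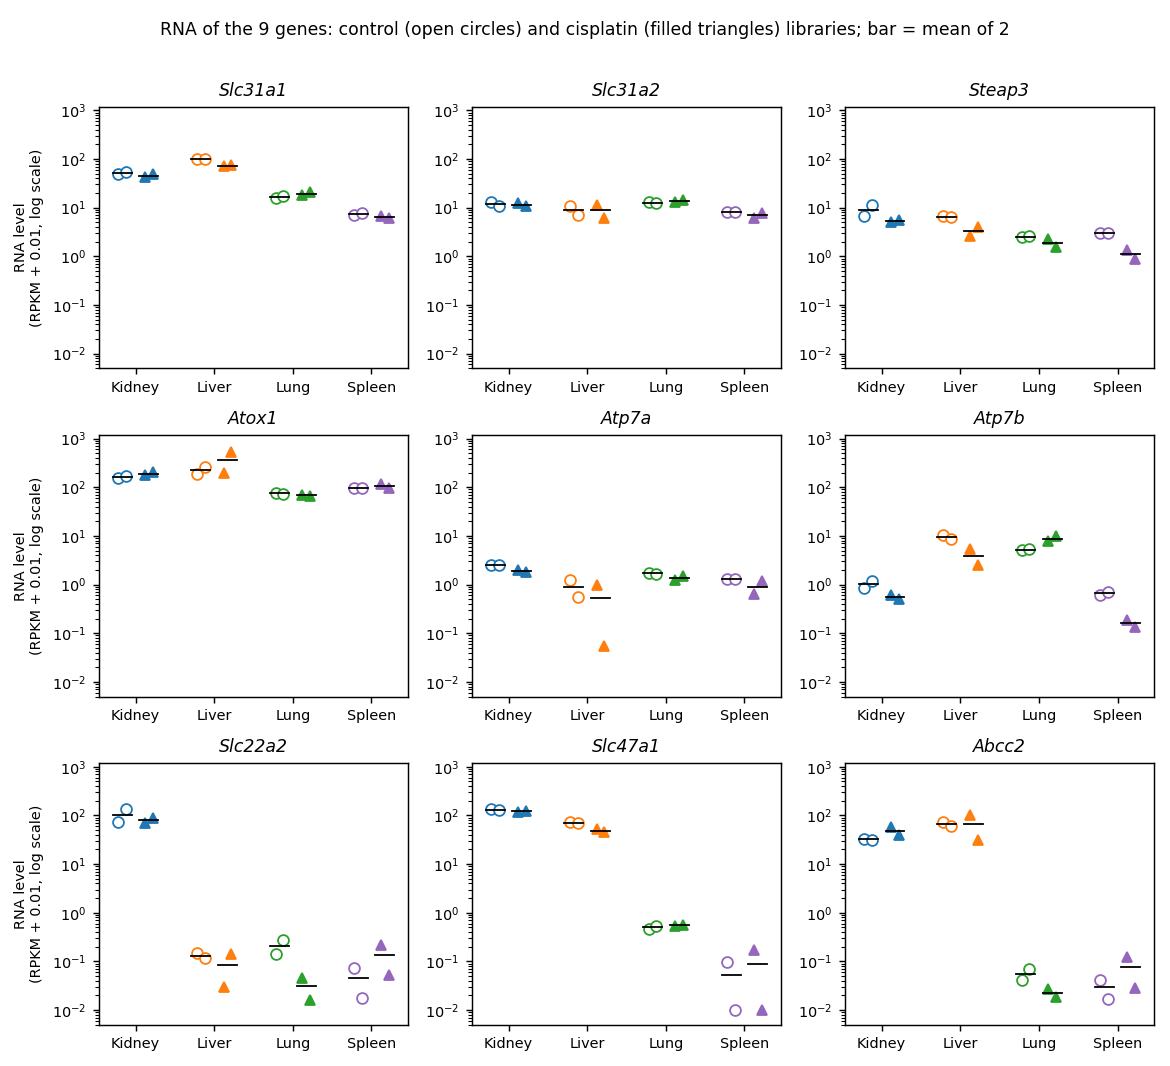
RNA level of each member in every library, as RPKM plus 0.01 on a log axis, by organ; open circles are control, filled triangles cisplatin, and the bar is the mean of 2 libraries. Slc22a2 is at 71.0 to 133 RPKM in kidney and at most 0.27 elsewhere, Slc31a1 steps down from liver to spleen, and the triangles of Atp7b lie above the circles in lung and below them in the other organs.

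The second comparison asked whether cisplatin changed these RNAs within an organ. No member passed the test in any organ: 0 of 35 member-by-organ tests (Slc22a2 was too low to be tested in liver), where 1.83% of all gene-by-organ tests passed. At an unadjusted p under 0.05 there were 6 of 35. The share of all genes at that limit is not given, so this count cannot be read as an excess among the members. DESeq2 with the same threshold also called 0 in each organ. In lung and spleen both tests set 2 cisplatin libraries against 1 summed control sample. The spread between libraries there came from the cisplatin libraries alone, so an uncalled value is not evidence of no change. The study, which also used DESeq2, describes Atp7b and Steap3 as lowered by cisplatin in spleen. With the replicate number as a block, 2 members were called in kidney and 1 in liver, among 3182 and 1015 genes. In lung and spleen the block was fitted with each control library as a replicate, and 2 members each were called, among 1914 and 172 genes. Atp7b was among them in every organ. The labels tie same-numbered libraries by that number alone. Without the block the called share of all genes was 5.05% for kidney, 2.09% for lung, 0.181% for spleen and 0.0% for liver. The liver test in particular thus called nothing to compare with. The members' median log2 fold change was -0.44 for liver, -0.19 for spleen, -0.17 for kidney and -0.14 for lung, beside medians of all genes of 0.03, 0.02, -0.003 and 0.03.

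The estimates for Atp7b lay on both sides of 0. Its cisplatin libraries had 7.82 and 9.80 RPKM in lung, 5.30 and 2.47 in liver, 0.59 and 0.491 in kidney and 0.181 and 0.124 in spleen. In kidney, liver and spleen both cisplatin libraries were below both controls, and in lung both were above, so the groups did not overlap in any organ. The log2 fold changes were -0.90 ± 0.32 in kidney (adjusted p = 0.27), -1.24 ± 0.42 in liver (0.46), -2.12 ± 0.40 in spleen (0.64) and 0.72 ± 0.19 in lung (0.28). The difference between lung and each other organ was tested as an interaction, and none was called (adjusted p = 0.51, 0.44 and 0.31 for kidney, liver and spleen). Over all members 0 of 54 such differences were called by edgeR, where 0.0908% of all gene-by-pair tests passed the same adjusted limit. At an unadjusted p under 0.05 there were 8 of 54, which cannot be read as an excess either, since the share of all genes at that limit is not given. In liver the value without cisplatin replicate 1 was -1.90 and was called (adjusted p = 0.0011), in a fit with 1 cisplatin library left.

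Steap3 had negative estimates in all 4 organs. Cisplatin libraries had 4.99 and 5.49 RPKM in kidney, 2.23 and 1.57 in lung, 2.56 and 4.02 in liver and 1.35 and 0.883 in spleen, all below the controls of their organ. The log2 fold changes for kidney, lung, liver and spleen were -0.78 ± 0.28, -0.46 ± 0.29, -0.92 ± 0.36 and -1.43 ± 0.33, with adjusted p of 0.30, 0.82, 0.59 and 0.83. Without control replicate 1 the kidney value was -1.13 and was called (adjusted p = 0.0068), and without control replicate 2 it was -0.33.

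Atp7a was below 0 in all organs too, at -0.77 ± 1.06 in liver, -0.51 ± 0.37 in spleen, -0.40 ± 0.20 in kidney and -0.32 ± 0.23 in lung. The liver value rested on 1 library. Cisplatin replicate 2 had 7 reads (0.0437 RPKM) where replicate 1 had 178 (0.974 RPKM), and without it the value was 0.15, while without replicate 1 it was -4.29 and was called (adjusted p = 0.00013). The same library had the highest Atox1 level of all, 540 RPKM against 194 in replicate 1, and without it the Atox1 value in liver turned from 0.76 ± 0.52 to -0.18 (1.30 without replicate 1, adjusted p = 0.034). Abcc2 differed between the same 2 libraries in the other direction, at 103 RPKM in replicate 1 and 31.6 in replicate 2, on either side of the controls.

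Atp7a, Steap3, Atp7b and Abcc2 are the members of 50 kb or more, and 12 of their 16 values were below 0, as against 10 of 19 for the 5 shorter members. Among all protein-coding genes tested the share below 0 rose with gene length. In kidney 72.2% of 2100 genes of 50 to 100 kb were below 0 (median -0.28) and 31.1% of 6260 genes under 20 kb (median 0.22). In spleen the shares were 66.5% (median -0.11) and 30.8%. The estimates for Steap3, at 81.9 kb, and for Atp7b, at 67.5 kb, were below the medians of their length class in kidney, liver and spleen. The part of gene length in the members' values was not tested.

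Estimates for the copper uptake pair lay between -0.39 and 0.17, and none was called. Slc31a1 had -0.39 ± 0.35 in liver, -0.19 ± 0.17 in spleen, -0.17 ± 0.16 in kidney and 0.17 ± 0.17 in lung, and Slc31a2 lay between -0.20 and 0.07 in all 4 organs. In lung both Slc31a1 cisplatin libraries (17.8 and 20.5 RPKM) were above the controls, and in the other 3 organs both were below. In liver they had 71.0 and 75.2 RPKM against 99.98 and 99.93 in the controls. The standard errors were 0.16 to 0.35 for Slc31a1 and 0.17 to 0.42 for Slc31a2, so that changes of that size were not detectable with these libraries. In kidney the drug carriers had 71.0 and 90.5 RPKM (Slc22a2), 118 and 125 (Slc47a1) and 56.6 and 39.2 (Abcc2) after cisplatin. Only Abcc2 lay above both controls with both libraries, at 0.61 ± 0.22 (adjusted p = 0.37), and Slc47a1 lay below both, at -0.09 ± 0.15. Over all members 7 of 9 in kidney, 4 of 9 in liver, 7 of 9 in lung and 6 of 9 in spleen had cisplatin libraries that did not overlap with the controls, where 56.3%, 42.0%, 66.5% and 58.5% of all tested genes did the same.

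In lung Slc22a2 had 6 and 3 reads after cisplatin against 12 and 66 in the controls, and Abcc2 had 10 and 14 against 10 and 50. The estimates were -3.78 ± 0.98 (adjusted p = 0.14) and -2.13 ± 0.73 (adjusted p = 0.29). In the same libraries 3 of 6 kidney tubule markers were lower in both cisplatin libraries (Umod 0.504 and 0.0775 RPKM against 2.36 and 2.11; summed level 2.73 to 3.99 against 6.89 to 7.03), as were 4 of 5 hepatocyte markers (summed level 0.635 to 18.7 against 23.4 to 34.0). None of these markers was at 0. In spleen the first cisplatin library, which had 24 reads of Slc22a2, 25 of Slc47a1 and 45 of Abcc2, also had the highest hepatocyte sum of the spleen libraries (135 RPKM, against 0.00733 to 11.7). The part of the cells these markers stand for in the low values was not tested.

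**Figure D2:**
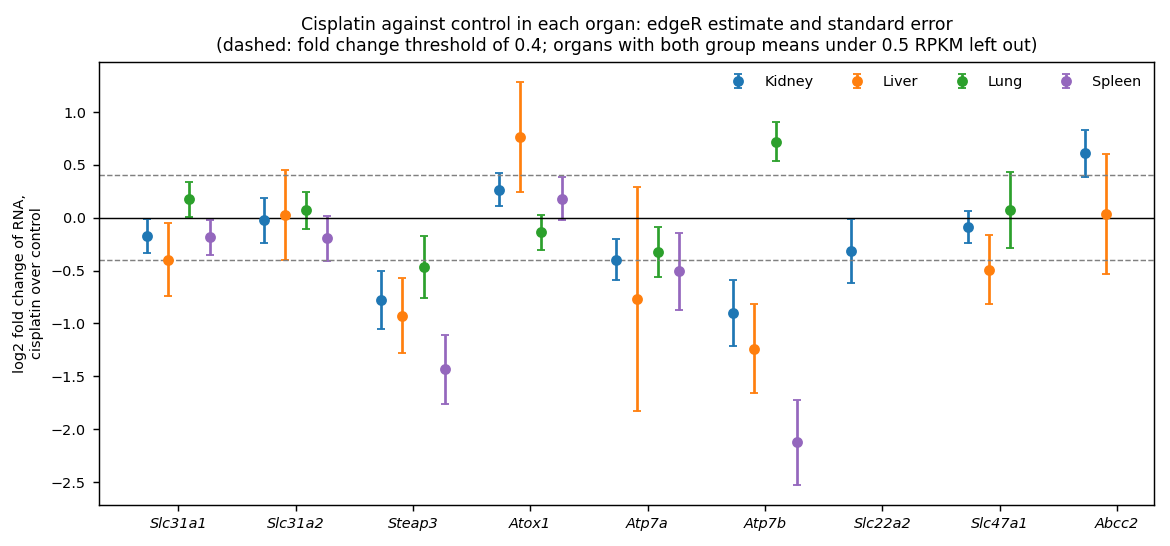
log2 fold change of RNA, cisplatin over control, for each member and organ. Bars are standard errors derived from the edgeR test against 0. Dashed lines mark the threshold of 0.4, and pairs with both group means under 0.5 RPKM are left out. Atp7b runs from -2.12 in spleen to 0.72 in lung, Steap3 and Atp7a are below 0 throughout, and no point passed the adjusted test.

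The third comparison was of excision on the TS between organs, measured in cisplatin-treated mice only. Levels are given as XR-seq RPM (reads scaled by the library's reads on genes) per 1000 GG, which can be compared between genes. Of 54 member-by-pair tests 32 passed an adjusted p of 0.05 in edgeR, where 35.1% of all gene-by-pair tests passed, and leaving out any 1 library gave 27 to 34. The fits were scaled by TMM, whose effective size was 0.735 to 0.747 of the reads on genes in liver and 0.885 to 0.981 in the other organs, so that a liver level in RPM is low relative to the fitted differences. When total reads alone were used 30 tests passed.

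Slc22a2 was excised in kidney at 15.5 and 13.8 on the TS, against 0.518 and 0.278 in lung, 0.518 and 0.814 in liver, and 0 and 0.306 in spleen, where 3 reads in the first library would be 0.115. Kidney was above liver by 4.09 ± 0.61 on the log2 scale (adjusted p = 0.00018) and above lung by 5.10 ± 0.64, and it was also called above spleen. Abcc2 had 16.8 and 16.03 in kidney and 15 and 16.7 in liver, which were not called apart, and 0.639 to 1.503 in lung and spleen, lower by 3.41 to 4.37 on the log2 scale. For both genes the organs with high RNA were those with high excision.

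Slc47a1 was called in all 6 pairs. Liver had 62.1 and 51.5, kidney 16.98 and 28.9, lung 6.08 and 5.22, and spleen 0.533 and 0.424. Liver was above kidney by 1.69 on the log2 scale (kidney minus liver -1.69 ± 0.22, adjusted p = 5.7e-05), whereas its RNA was higher in kidney by an uncalled 0.79 in controls.

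Atp7b and Steap3 stood out in liver. Atp7b had 47.7 and 52.0 in liver, 5.68 and 3.04 in kidney, 2.07 and 1.86 in lung and 1.24 and 2.44 in spleen, and liver was above kidney by 3.89 ± 0.31 (adjusted p = 9.5e-07), above lung by 4.95 ± 0.32 and above spleen by 4.93 ± 0.33. Lung and spleen were not called apart (-0.02 ± 0.30, adjusted p = 0.98), although the RNA of the cisplatin libraries was 7.82 and 9.80 RPKM in lung and 0.181 and 0.124 in spleen. Steap3 had 29.8 and 37.2 in liver, 9.83 and 9.52 in lung, 9.78 and 13.6 in spleen and 6.17 and 6.61 in kidney. Liver was above kidney by 2.76 ± 0.17 (adjusted p = 1.4e-07), and kidney was below each other organ. Kidney had the highest mean Steap3 RNA of the 4 organs in both treatment groups, but in controls it was not called above liver.

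The remaining copper genes varied less. Atox1 had the highest TS level of the 9 genes in kidney, lung and spleen, between 51.8 and 65.3, and 27.8 and 26.9 in liver, which was below each other organ by 0.74 to 0.94 on the log2 scale (adjusted p = 0.00018 to 0.0013), although liver had its most abundant RNA. Slc31a1 lay at 42.1 and 39.1 in lung, 27.0 and 35.9 in kidney, 30.7 and 30.9 in spleen and 21.4 and 22.4 in liver, and the one call was liver below lung (-0.60 ± 0.16, adjusted p = 0.0074). Its TS level thus did not follow the order of its RNA, in which liver was first. Slc31a2 ran from 20.3 to 26.1 over all 8 libraries, with 1 call (liver above spleen by 0.42 ± 0.14, adjusted p = 0.029). Atp7a had 10.2 and 12.7 in kidney, below each other organ by 0.43 to 0.74 (adjusted p = 0.0015 to 0.047).

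**Figure D3:**
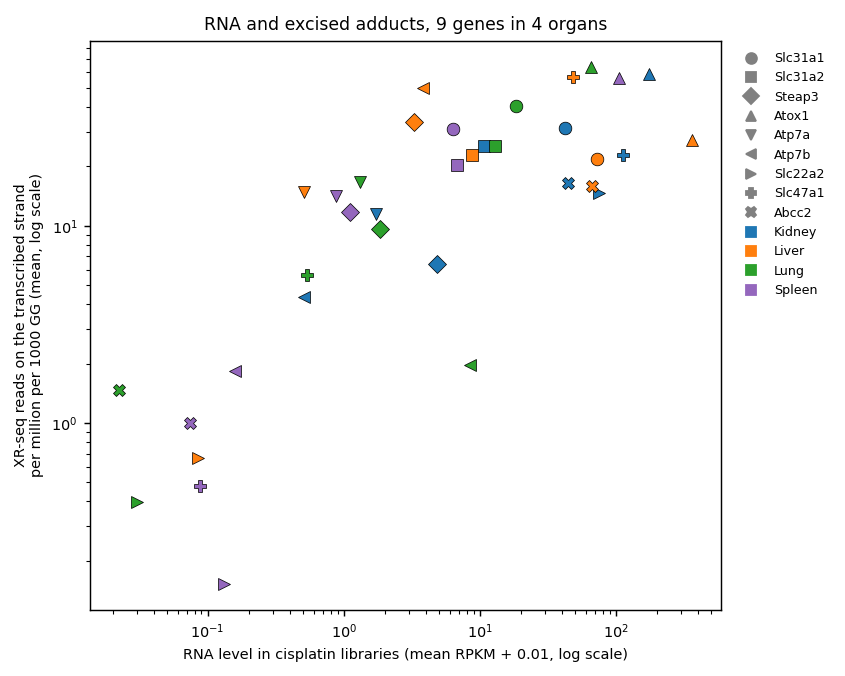
XR-seq RPM on the TS per 1000 GG against RNA level in the cisplatin libraries (mean RPKM plus 0.01), both means of 2 libraries on log axes, for 9 genes (marker shapes) in 4 organs (colours). The left-pointing green triangle, Atp7b in lung, lies far below other points of its RNA level, and liver Atp7b and Steap3 lie above them; the points of one organ share libraries, so no test is given.

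On the NTS the levels were lower and less even between replicates. Atox1, for example, had 1 and 68 reads in the kidney libraries and Slc22a2 had 0 and 135. There were 8 calls in 54 tests where 12.5% of all gene-by-pair tests passed, and single libraries moved this count: without kidney replicate 1 or 2 it was 16 or 17, without either liver or either lung replicate it was 3 or 4. The 2 Slc31a genes had by far the highest NTS levels of the members, 8.50 to 18.4 RPM per 1000 GG over all libraries, whereas no other member passed 3.88. For Slc31a1 the opposite-strand gene Cdc26 shares part of that count, while for Slc31a2 no opposite-strand gene overlaps in the annotation.

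The fourth comparison took the ratio of TS to NTS within a library, per GG, which measures how far excision or remaining adducts lean to one strand. Transcription-coupled repair, which starts where RNA polymerase stalls at a lesion, acts on the TS of transcribed genes. In XR-seq the TS was called higher in 30 of 36 member-by-organ tests and lower in none, where 55.0% of all gene-by-organ tests were called higher. All 9 members were called in kidney, 8 each in lung and liver, and 5 in spleen. Of 20744 genes tested, 12534 were called in either direction in kidney, 13338 in lung, 11663 in liver and 13009 in spleen. Leaving out any 1 library gave 24 to 30 calls.

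Those not called were where RNA was near 0, with 1 exception. Slc22a2 was called in kidney only (5.33 ± 1.94), with 698 and 948 TS reads there and at most 84 elsewhere. Abcc2 fell from 3.03 ± 0.44 in kidney and 2.15 ± 0.42 in liver to 1.13 ± 0.42 in lung and -0.33 ± 0.44 in spleen, and the spleen libraries had 45 and 69 reads on the TS and 36 and 161 on the NTS, a TS share of 55.6% (95% Wilson interval 44.7 to 65.9) and 30.0% (24.4 to 36.2). These intervals cover counting error only and leave out the spread between libraries. Slc47a1 in spleen rested on 12 and 31 TS reads and was not called. The exception was Slc31a2 in spleen, at 0.43 ± 0.21 (adjusted p = 0.12), with 478 and 1547 TS reads and an RNA level of 6.05 to 8.07 RPKM.

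Atp7b had its steepest ratio in liver, 5.17 ± 0.28, where 97.3% and 96.9% of its reads were on the TS, against 3.27 ± 0.27 in kidney, 2.84 ± 0.26 in lung and 2.68 ± 0.28 in spleen. Steap3 had 4.86 ± 0.27 in liver, 3.66 ± 0.25 in lung, 3.54 ± 0.26 in spleen and 2.16 ± 0.24 in kidney. Atp7a was steepest in spleen, at 6.40 ± 0.44, with only 7 and 29 NTS reads, and least steep in kidney, at 3.75 ± 0.37. Atox1 had ratios of 3.77 to 6.38 with errors near 1, since its NTS counts were 0 to 97. Slc31a1 and Slc31a2 had the flattest ratios among transcribed members, 0.43 to 2.00, beside their high NTS levels.

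The difference of the ratio between organs was called in 12 of 54 tests, where 9.59% of all gene-by-pair tests passed. 5 of the 12 were Steap3, 3 were Atp7b (liver against each other organ), 2 were Abcc2 (spleen below kidney and liver), and 1 each were Atp7a (kidney below spleen) and Slc31a1 (liver below lung). This count rested on single libraries: it was 1 without either liver replicate, 3 without lung replicate 1, 4 without lung replicate 2 and 20 without kidney replicate 2.

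**Figure D4:**
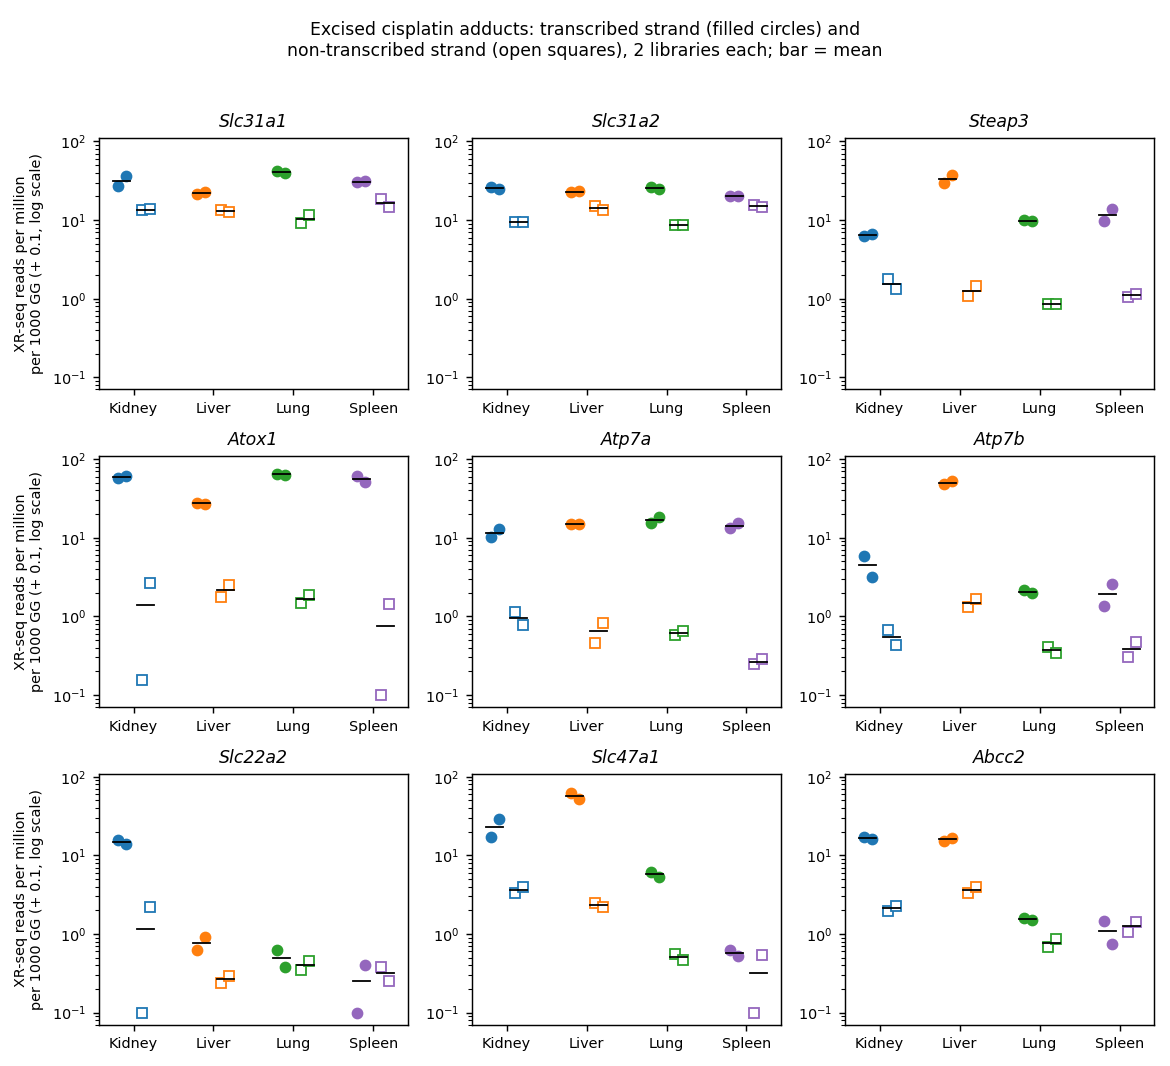
XR-seq RPM (reads scaled by the library's reads on genes) per 1000 GG (plus 0.1, log axis) on the TS (filled circles) and NTS (open squares) of each member in 2 libraries per organ, with bars at the mean. TS lies above NTS in nearly all panels, with Atp7b at 47.7 and 52.0 in liver against 1.24 to 5.68 elsewhere, and the strands of Slc22a2 and Abcc2 meet in spleen.

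Damage-seq gives the adducts that remained. Its ratio was called below 0 in 12 of 36 tests and above 0 in none, where 23.4% of all gene-by-organ tests were called lower, and leaving out any 1 library gave 8 to 14. By organ there were 5 members in liver, 4 in kidney, 3 in lung and 0 in spleen, where 32.7%, 20.9%, 27.1% and 13.1% of all genes were called lower. The spleen libraries were the shallowest of this assay, with 9 to 116 TS reads on a member.

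In liver the 5 were Atox1 (-2.13 ± 0.44), Slc31a1 (-1.49 ± 0.32), Slc47a1 (-1.17 ± 0.26), Abcc2 (-1.13 ± 0.20) and Atp7b (-1.10 ± 0.18). The Atox1 value rested on few reads, 13 and 2 on the TS and 32 and 27 on the NTS. Slc31a1 had 24 and 12 TS reads, and the TS share of Slc47a1 was 20.9% and 38.2% in the 2 libraries. In the liver libraries 82 and 50 of the Atp7b reads were on the TS and 191 and 112 on the NTS, a TS share of 30.0% (95% Wilson interval 24.9 to 35.7) and 30.9% (24.3 to 38.4). In kidney the shares were 49.8% (45.8 to 53.9) and 49.7% (45.2 to 54.2), with which the liver intervals did not overlap. In kidney the called members were Slc31a1 (-1.14 ± 0.24), Atox1 (-1.15 ± 0.28), Slc22a2 (-0.63 ± 0.20, adjusted p = 0.014) and Slc47a1 (-0.49 ± 0.18, adjusted p = 0.041). In lung they were Slc31a1 (-0.83 ± 0.25), Atp7a (-0.53 ± 0.15) and Slc47a1 (-0.49 ± 0.19, adjusted p = 0.039).

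Steap3 had the most Damage-seq reads of the 9 genes in kidney, liver and lung, and its ratio never went beyond -0.13. It was -0.13 ± 0.14 in liver, -0.08 ± 0.12 in lung, -0.01 ± 0.12 in kidney and -0.01 ± 0.17 in spleen, none called. In liver 175 and 122 of its reads were on the TS and 201 and 143 on the NTS, although the XR-seq ratio there was 4.86. For Atp7b, with a liver XR-seq ratio of 5.17, the liver Damage-seq ratio was -1.10.

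Differences of the Damage-seq ratio between organs were called in 7 of 54 tests, where 3.87% of all gene-by-pair tests passed. They were liver against kidney, lung and spleen for Atp7b and for Abcc2, and liver against spleen for Slc47a1, each with the lower ratio in liver. Without liver replicate 1 the count was 3, and over all libraries left out it was 3 to 8.

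Damage-seq levels were also compared between organs on each strand. On the TS 13 of 54 tests were called, where 12.1% of all gene-by-pair tests passed, and on the NTS 1 of 54, where 7.8% passed. DESeq2 called 5 on the TS, and without kidney replicate 2 or liver replicate 1 the edgeR count was 8 or 7. On the TS Atp7b had 4.80 and 4.85 RPM per 1000 GG in liver, 10.5 and 9.74 in kidney, 8.52 and 8.48 in lung and 11.1 and 12.4 in spleen, with liver below all 3 (adjusted p = 0.00032, 0.012 and 3.2e-05). Slc22a2 had 6.20 and 5.91 in kidney and 6.23 to 11.6 in the other organs, and kidney was below liver by 0.75 ± 0.24 (adjusted p = 0.0099), below lung by 0.69 ± 0.22 and below spleen by 0.72 ± 0.26. The NTS call was Atox1 in kidney above spleen (1.31 ± 0.36, adjusted p = 0.013), which was lost without kidney replicate 1 and without either spleen replicate.

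**Figure D5:**
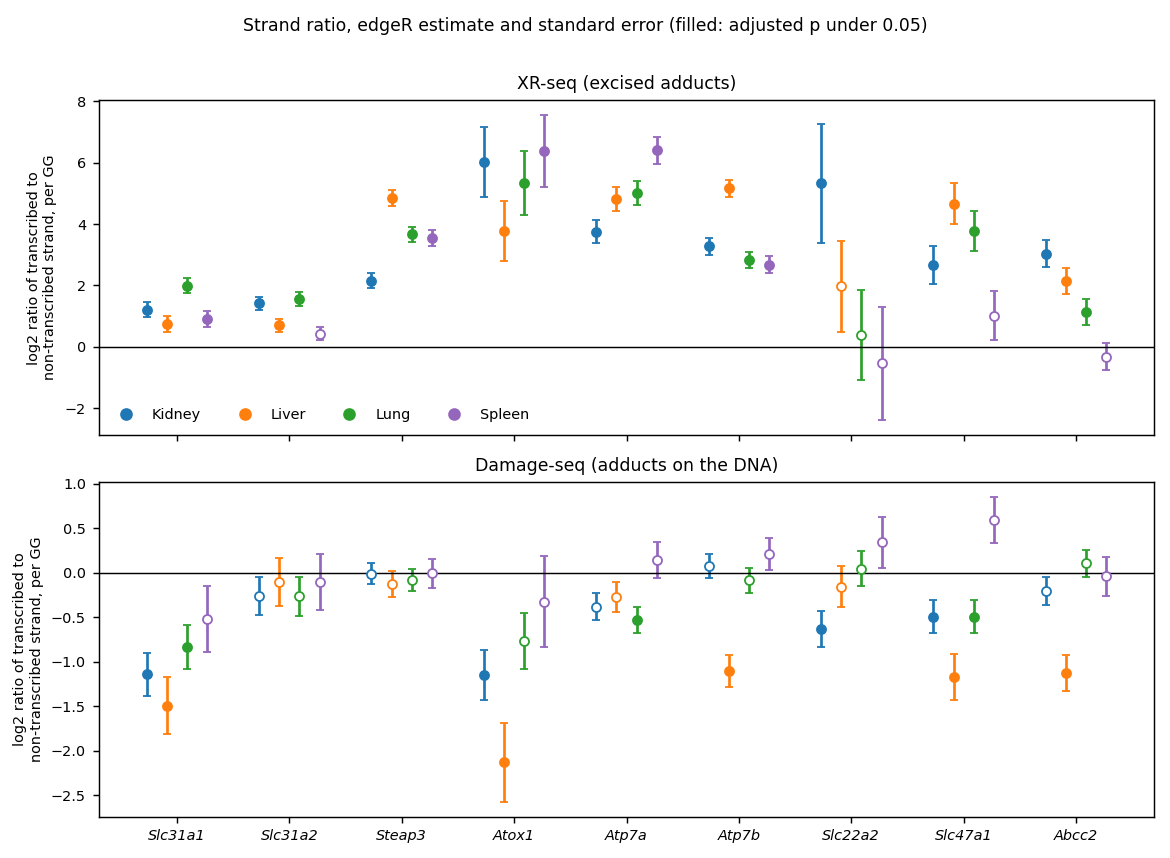
log2 ratio of TS to NTS per GG with its standard error from edgeR, for XR-seq (top) and Damage-seq (bottom), by member and organ; filled points passed an adjusted p of 0.05. In liver 5 members lie near or below -1.1 in Damage-seq, and Steap3 lies between -0.13 and -0.01 in Damage-seq while its XR-seq ratio is 4.86 in liver.

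Of 36 further genes of copper and platinum transport (chaperones and acceptors, metalloreductases, other uptake carriers and efflux pumps) 35 were in the files. After cisplatin 0 of them passed the test in any organ, of 35 tested in kidney and lung and 32 in liver and spleen, with medians of -0.07, -0.08, 0.01 and -0.11 in kidney, liver, lung and spleen. In Damage-seq 18 of 35 had a ratio called below 0 in liver, 11 in kidney, 9 in lung and 7 in spleen, and none was called above, where 32.7%, 20.9%, 27.1% and 13.1% of all genes were called lower. The lung count is near the share of all genes.

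Over the 14 RNA samples the genes most like each member, by Pearson correlation of log2 CPM among 19100 genes, were Sqor and Ak3 for Slc31a1 (0.993 and 0.991), Appl2 and Camsap2 for Slc31a2 (0.944 and 0.942), Slc38a10 and Wwox for Steap3, Glrx5 and Mrpl30 for Atox1, Dpp8 and Pptc7 for Atp7a, and Ece1 for Atp7b. For the carriers they were Tmem72 and Clrn3 for Slc22a2, Cldn2 and Ghr for Slc47a1, and Pipox and Nr1h4 for Abcc2. The samples form 4 organ clusters, so these values mostly describe shared organ levels.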

How the data were processed

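RNA-seq (poly(A), paired-end, no strand kept), XR-seq and Damage-seq libraries were analysed from the raw read counts per gene that the authors deposited, whole numbers with no normalization. XR-seq and Damage-seq counts were given for each strand. The submitters' processing notes and the study's methods name cutadapt, BWA, Picard, STAR, featureCounts and DESeq2, and the mm10 build. No count was altered before testing. The 16 blank gene lines were left out.

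The members and all gene lists were chosen with earlier results of these data known. The 9 members are all described, the 2 most correlated genes are named for each (1 for Atp7b), and other genes of copper and platinum transport were to be named only if called after cisplatin, which none was.

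Tests used edgeR 4.0.16 (R 4.3.3) with TMM scaling, its filter on low counts and Benjamini-Hochberg adjustment over all genes tested, called at an adjusted p under 0.05. The effect of cisplatin in each organ and RNA levels between organs were tested against a log2 fold change of 0.4 (glmTreat), and differences between organs in XR-seq, Damage-seq and the cisplatin response against 0 (glmQLFTest). Standard errors were derived from the edgeR test against 0, as the absolute log2 fold change over the square root of F. They stand beside p-values against 0.4 where glmTreat was used. Strand ratios were fitted on both strands of each library, with the library as a block and GG dinucleotides per strand as an offset. Replicates are named as biological replicates in the study, and the labels do not say that they were separate animals, so p-values measure the spread between these libraries. The control pairs of lung and spleen RNA had dispersion indices of 2.75 and 2.98. The limit at or under which an RNA-seq pair was summed to 1 sample was 3. That sample was assumed to vary like the cisplatin libraries. The limit was not applied to Damage-seq, whose pairs had indices of 1.43 to 3.11 and were kept as separate replicates. RPKM uses exon length by GENCODE M21. DESeq2 1.42.0, other scalings, no filter, a replicate block and leaving out each library were the alternatives. The fits were tested on simulated data. A few results, the erythroid marker list among them, are not reported here.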

Additional observations from a re-analysis of the deposited data

Results flagged for a closer look

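In 19 instances the log2 ratio of TS to NTS of a member differed between 2 organs by the test of the difference itself (edgeR, adjusted p under 0.05). In XR-seq 12 of 54 differences were called and in Damage-seq 7 of 54, where 9.59% and 3.87% of all gene-by-pair tests passed. In each case the value is the first organ minus the second.

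In XR-seq the Steap3 difference was -2.70 for kidney minus liver, -1.51 for kidney minus lung, -1.38 for kidney minus spleen, 1.19 for liver minus lung and 1.32 for liver minus spleen. For Atp7b it was -1.89 for kidney minus liver, 2.33 for liver minus lung and 2.49 for liver minus spleen. Abcc2 had 3.36 for kidney minus spleen and 2.48 for liver minus spleen. Atp7a had -2.65 for kidney minus spleen, and Slc31a1 had -1.25 for liver minus lung.

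In Damage-seq, Atp7b had 1.18 for kidney minus liver, -1.02 for liver minus lung and -1.32 for liver minus spleen. Abcc2 had 0.92, -1.23 and -1.09 for the same pairs, and Slc47a1 had -1.75 for liver minus spleen. With all libraries kept, Atp7b is the one member called between liver and each other organ in both assays, with the TS more favoured for excision and holding fewer of the remaining adducts in liver. This depended on single libraries. Without either liver replicate most XR-seq differences of the members were no longer called, and without liver replicate 1 fewer Damage-seq differences were called.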

How the results depend on the processing

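With 2 libraries a group, counts of calls moved with single libraries. Without 1 of the cisplatin libraries of lung or spleen, no replicate was left in that organ for the cisplatin test. Those cases used a fit on all organs, so the model changed along with the library. In lung that fit gave 70 genes with all libraries kept. Leaving out 1 library gave 22 to 24 member calls for RNA level between organs, 27 to 34 for XR-seq TS, 3 to 17 for XR-seq NTS, 24 to 30 for the XR-seq strand ratio and 1 to 20 for its differences between organs. It gave 7 to 13 for Damage-seq TS, 0 to 2 for Damage-seq NTS, 8 to 14 for the Damage-seq strand ratio and 3 to 8 for its differences. For the cisplatin response it gave 0 to 1 members in kidney, 0 to 3 in liver and 0 to 1 in spleen, and 123 to 2005 of all genes in kidney, 22 to 1840 in liver, 0 to 339 in lung and 22 to 97 in spleen. The members called were Steap3 without kidney control replicate 1, Atox1, Atp7a and Atp7b without liver cisplatin replicate 1, and Slc47a1 without spleen cisplatin replicate 2. Estimates that changed sign ran from -0.70 to 0.20 for Slc22a2 in kidney, -0.18 to 0.14 for Slc31a2 in kidney, -0.49 to 0.40 in liver and -0.0115 to 0.12 in lung, -1.06 to 0.64 for Abcc2 in liver, -0.18 to 1.30 for Atox1 in liver and -0.0481 to 0.25 in spleen, -4.29 to 0.15 for Atp7a in liver, and -5.82 to 7.54 for Slc47a1 in spleen.

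The genes called for cisplatin in kidney, liver, lung and spleen were 782, 0, 381 and 32. With no filter they were 1896, 155, 1089 and 58. Tested against 0, kidney gave 1711 and lung 804. DESeq2 gave 188 in liver and 85 in spleen, and a fit on all organs 518 in liver and 70 in lung. With each control library as a replicate, lung gave 1606 and spleen 62. With no filter Slc22a2 was called in lung, 1 member. DESeq2 gave 5 calls for Damage-seq TS, 0 for NTS and 15 for XR-seq NTS, and total reads as the only scaling gave 2 for Damage-seq NTS and 14 for XR-seq NTS, where Slc31a2 in kidney minus lung turned from -0.69 to 0.14. The cause was not tested.

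The labels tie libraries with the same replicate number by that number alone, and whether they shared a batch was not tested. The correlation of their deviations was 0.303 for kidney, 0.280 for spleen, 0.193 for liver and 0.057 for lung, with 2 pairs each. With the replicate block 2 members were called in kidney (Atp7b and Steap3) and 1 in liver (Atp7b), among 3182 and 1015 genes, and Abcc2 in liver was -0.19. In lung and spleen the replicate block was fitted together with each control library as a replicate, and 2 members were called in lung (Atp7b and Slc22a2) and 2 in spleen (Atp7b and Steap3), among 1914 and 172 genes.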
